A study of Mus musculus with 2 samples.

Results

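The enzymes that break down glucose and pyruvate were compared between the second polar body (PB2) of the mouse and the zygote it lies beside. The 38 genes listed encode enzymes of glycolysis, lactate dehydrogenase, the mitochondrial pyruvate carrier, the pyruvate dehydrogenase complex, the TCA cycle and the pentose phosphate pathway. They were found by symbol, and 37 of the 38 are among the 11262 genes of the deposited expression table. The gene not among them is Hk1, a hexokinase. Of the 37 genes, 35 reached 1 TPM in PB2 or in the zygote and were compared, while Ldha and Tkt stayed under 1 TPM in both.

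PB2 is the small cell that the egg sheds when it completes meiosis after fertilization. It carries a haploid set of maternal chromosomes and a little of the egg's cytoplasm. The study asked which molecules PB2 holds at the 1-cell stage. The 2 groups were PB2 and the zygote itself, both from untreated C57BL/6 mouse embryos (C57BL/6N in the study's methods) taken from the oviduct and cultured in KSOM, an embryo culture medium. At the late 1-cell stage the zona pellucida was dissolved in acid, and PB2 was split off by trypsin and pipetting. Cells were pooled, and polyadenylated RNA was amplified as full-length cDNA, with 1 library per group. There are no replicates, so the spread between samples is unknown, no test was run, and every difference below describes these 2 libraries. Values are TPM, the share of a gene's transcripts in a library set to a fixed total and adjusted for transcript length. TPM gives proportions, so fewer transcripts of a gene and more transcripts of all others cannot be told apart, nor can fewer contributing cells and less RNA per cell.

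Glycolysis splits glucose into pyruvate in the cytosol. Lactate dehydrogenase interconverts pyruvate and lactate, and the mitochondrial pyruvate carrier brings pyruvate to the pyruvate dehydrogenase complex, which makes the acetyl-CoA that the TCA cycle oxidizes. The pentose phosphate pathway branches off glycolysis and yields NADPH and ribose. Mouse oocytes and zygotes are known for living on pyruvate and using little glucose, and for storing much lactate dehydrogenase of the heart type, built from LDHB subunits.

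The transcript levels of the 2 lactate dehydrogenase genes were farther apart than those of any other isozymes compared here. Ldhb had 7524.6 TPM in the zygote against 4725.4 TPM in PB2, and Ldha, which encodes the muscle-type subunit, had 0.7 and 0.9 TPM. Their RefSeq promoter windows, 250 bases before to 50 after the transcription start in GRCm38.p6, are printed here because the levels of the 2 genes contrast so strongly in both libraries. Capitals mark matches on either strand to ACGTG, the core of the hypoxia response element, to GGGCGG, the GC box, and to CCAAT. The windows are the first of 2 for Ldha on the plus strand at chr7:46845554-46845853 and the only window for Ldhb on the minus strand at chr6:142507908-142508207.
Ldha: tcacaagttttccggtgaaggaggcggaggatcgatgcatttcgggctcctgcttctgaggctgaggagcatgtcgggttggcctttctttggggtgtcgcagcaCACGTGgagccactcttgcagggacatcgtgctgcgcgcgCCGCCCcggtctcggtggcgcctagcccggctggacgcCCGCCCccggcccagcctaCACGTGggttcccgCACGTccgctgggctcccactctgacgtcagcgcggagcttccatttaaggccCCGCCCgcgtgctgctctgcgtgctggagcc
Ldhb: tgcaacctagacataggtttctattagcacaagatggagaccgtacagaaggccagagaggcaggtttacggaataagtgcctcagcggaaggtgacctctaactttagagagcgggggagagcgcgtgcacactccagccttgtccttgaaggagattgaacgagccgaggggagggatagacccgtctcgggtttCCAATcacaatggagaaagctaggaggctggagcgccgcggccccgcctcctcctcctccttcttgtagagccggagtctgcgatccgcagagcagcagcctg

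The Ldha window holds CACGTG, the E-box, 2 times. ACGTG lies inside each E-box on both strands, which gives 4 of its 5 matches, and 1 match lies outside. GGGCGG matches 3 times and CCAAT does not match. In the Ldhb window CCAAT matches 1 time, and none of the other letter strings does. TATAAA, the TATA box, is in neither. Of 32544 mouse promoter windows of the same length, 7.17% hold CACGTG, 19.7% ACGTG, 35.9% GGGCGG, 37.4% CCAAT and 13.6% TATAAA. The GC content is 67.3% with 30 CpG in the Ldha window and 57.3% with 17 CpG in the Ldhb window, against medians of 53.0% and 7 over all windows. The other Ldha window has 13 CpG and no match to any of the strings. These are descriptions of letters, and 37 of the 38 genes have at least 1 window in the table they come from.

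Both libraries carried the transcripts of an egg. All 15 oocyte and zygote markers were present, with a summed level of 48974 TPM in the zygote against 39771 TPM in PB2. Dppa3 alone made up 22561.9 TPM of the zygote sum against 8070.2 TPM of the PB2 sum, so their order rests on it. Of the 15 markers, 4 were higher in PB2 by at least 2-fold, 26.7% beside 18.9% of all genes. Dppa3 was the only 1 higher in the zygote by at least 2-fold, 6.67% beside 8.09%. Of 20 markers of cumulus and granulosa cells, the somatic cells around the egg, 7 are in the table and 6 reached 1 TPM, with a sum over these 6 of 85.3 TPM in the zygote against 83.3 TPM in PB2. Most of that sum was Cyp19a1, with 72.2 and 70.9 TPM. Has2, Ptx3, Foxl2 and Amh are not among the 7 in the table, and Cyp11a1 was listed at 0 in the zygote and 0.8 TPM in PB2. Of 7 sperm markers, Prm2 had 19.8 and 22.0 TPM and Akap4 1.0 and 0.6 TPM. The part of other cells in the enzyme levels was not tested.

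Most of the glycolytic genes compared and the 3 pentose phosphate genes compared were higher in PB2. Those for the uptake and oxidation of pyruvate were mostly lower in PB2. The log2 ratio used throughout is log2((PB2 TPM + 1)/(zygote TPM + 1)), and where values are given as a pair the zygote comes first. On this scale 11 of the 35 genes, 31.4%, were higher in PB2 by at least 2-fold, against 18.9% of the 10645 genes compared. In the other direction 3 genes, 8.57%, were higher in the zygote by at least 2-fold, against 8.09% of all genes, a share near the background. The median log2 ratio was 0.11, below the 0.21 of all genes, and without Ldhb it was 0.26. The 11 were Gpi1, Pfkl, Pfkm, Aldoa, Gapdh, Pgam1, Pkm, Idh3b, G6pdx, Pgd and Taldo1, and the 3 were Mpc1, Suclg1 and Mdh1.

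**Figure D1:**
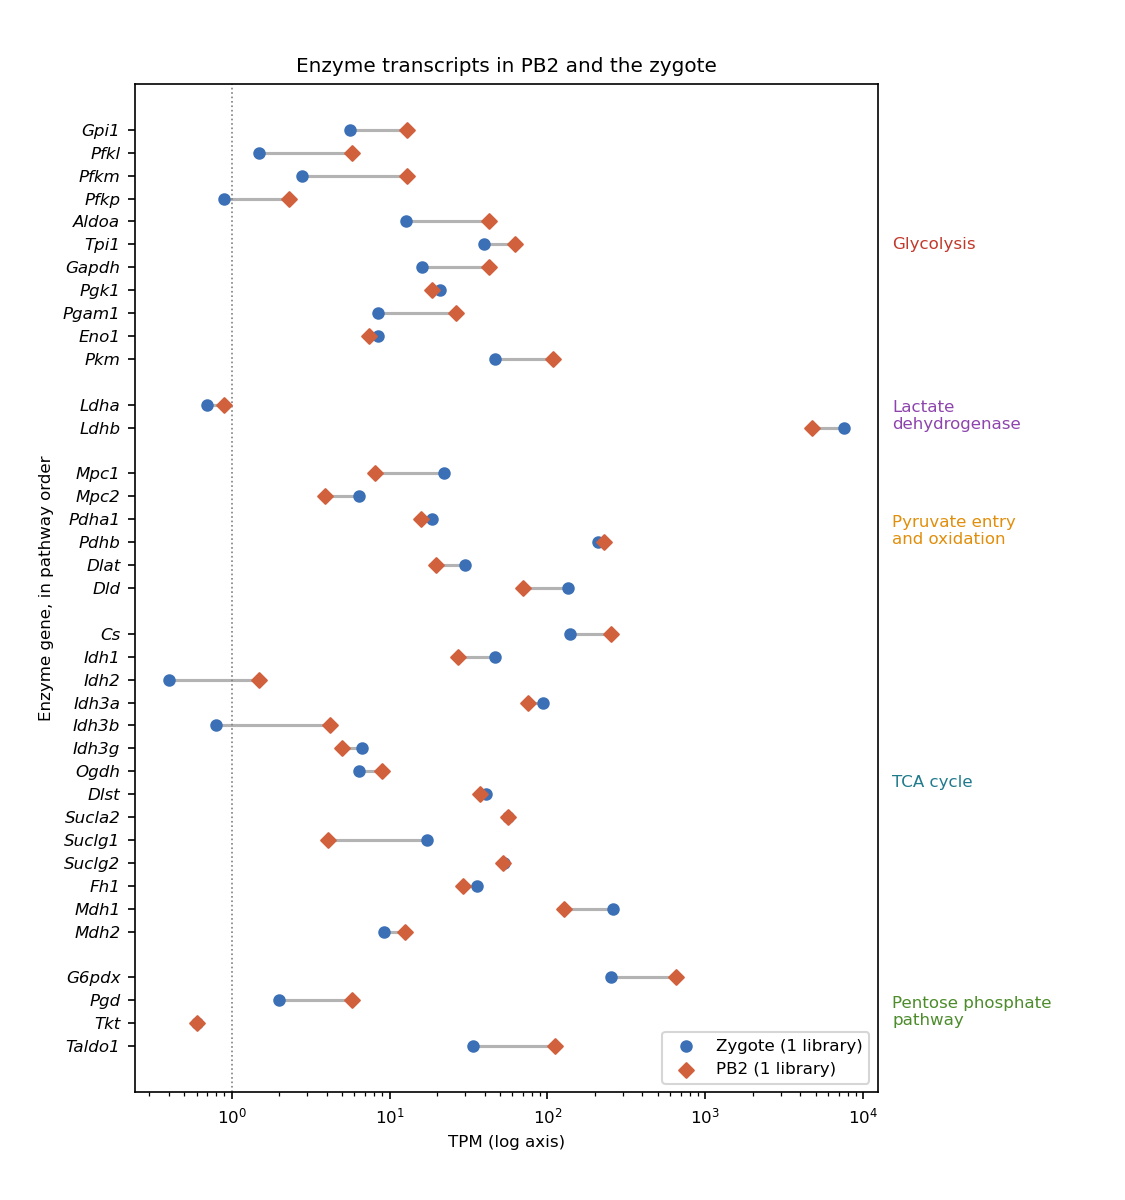
Transcript levels of the 37 enzymes in pathway order, in TPM on a log axis, with 1 circle for the zygote library and 1 diamond for the PB2 library per gene and a dotted line at 1 TPM. Diamonds lie to the right of circles for 9 of the 11 glycolytic genes, beside 6298 of the 10645 genes compared. Ldhb stands at 7524.6 TPM in the zygote against 4725.4 TPM in PB2, above every other enzyme.

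The levels covered a wide range within each library. In the zygote 23 of the 37 genes lay above the table's median of 8.7 TPM, and in PB2 24 lay above its median of 11.1 TPM. Summed over the set, the zygote had 9165 TPM and PB2 6879 TPM. Ldhb alone made up 82.1% of that sum in the zygote and 68.7% in PB2. Without Ldhb the order turned, with 1641 TPM in the zygote against 2153 TPM in PB2.

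In glycolysis 7 of the 11 genes compared were higher in PB2 by at least 2-fold, 63.6% beside 18.9% of all genes. None was higher in the zygote by at least 2-fold, beside 8.09% of all genes, and the median log2 ratio was 1.19. The summed level of the 11 was 164 TPM in the zygote against 341 TPM in PB2. The genes past 2-fold lay between Gpi1, the first enzyme of the 11, and Pkm, the last, but not at every step. No hexokinase is among the 11. Pfkp and Tpi1 were higher in PB2 by less than 2-fold, and Pgk1 and Eno1 were slightly lower in PB2. With the trend of the log2 ratio on transcript GC content removed, 2 of the 11, Pfkm and Pgam1, stayed past 2-fold towards PB2. Eno1 lay past it towards the zygote. The shares of all genes were then 9.08% and 11.0%.

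Gpi1, the isomerase that turns glucose phosphate into fructose phosphate, had 5.6 TPM in the zygote against 12.9 TPM in PB2 (log2 ratio 1.07). Phosphofructokinase, the committed step of glycolysis, is built from muscle, liver and platelet subunits, and all 3 were higher in PB2. Pfkm, the muscle subunit, had 2.8 and 12.9 TPM, a ratio of 4.61, which rounding of the deposited values allows to lie between 4.51 and 4.71. Pfkl, the liver subunit, had 1.5 and 5.8 TPM, and Pfkp, the platelet subunit, 0.9 and 2.3 TPM. The log2 ratios were 1.87, 1.44 and 0.80 in that order, so Pfkp stayed under 2-fold on that scale, although the plain ratio of its TPM values was 2.56. Together the 3 subunits reached 5.20 TPM in the zygote against 21.0 TPM in PB2. Pfkm, on chromosome 15 at 98092589 to 98132451 in GRCm38, had the highest log2 ratio of the 35 genes. None of its 50-base runs is found in a transcript of another gene. The shared part is 25.3% for Gpi1, 17.1% for Pfkp and 0.0543% for Pfkl.

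Aldoa, the aldolase that splits the sugar into triose phosphates, had 12.7 TPM in the zygote against 42.4 TPM in PB2 (log2 ratio 1.66). Tpi1, which interconverts the triose phosphates, had 39.8 and 62.0 TPM (log2 ratio 0.63). Gapdh, which forms the first NADH of the pathway, had 16.1 and 42.6 TPM (log2 ratio 1.35). Of these, Tpi1 alone stayed under 2-fold. Gapdh is often used as a reference for normalization, and its ratio between these libraries was 2.65. However, 82.5% of the 50-base runs of its transcript are also in transcripts of 222 other genes, and how the counting treated shared reads is not stated. Shared 50-base runs are 13.5% for Aldoa and 7.51% for Tpi1.

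Below the trioses the steps differed. Pgk1, which makes the first ATP, had 21.0 TPM in the zygote against 18.7 TPM in PB2 (log2 ratio -0.16). Pgam1, the phosphoglycerate mutase, had 8.5 and 26.2 TPM (log2 ratio 1.52). Eno1, enolase, had 8.5 and 7.4 TPM (log2 ratio -0.18). Pgam1 and Eno1, at the same level in the zygote, were thus on different sides in PB2. Pkm, the pyruvate kinase that ends glycolysis, was the most abundant glycolytic transcript of the list in both libraries, with 46.7 and 108.2 TPM and a log2 ratio of 1.19. Other transcripts share sequence with all 4: 68.0% of the 50-base runs are shared for Pgk1, 41.5% for Pgam1, 72.2% for Eno1 and 34.4% for Pkm.

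**Figure D2:**
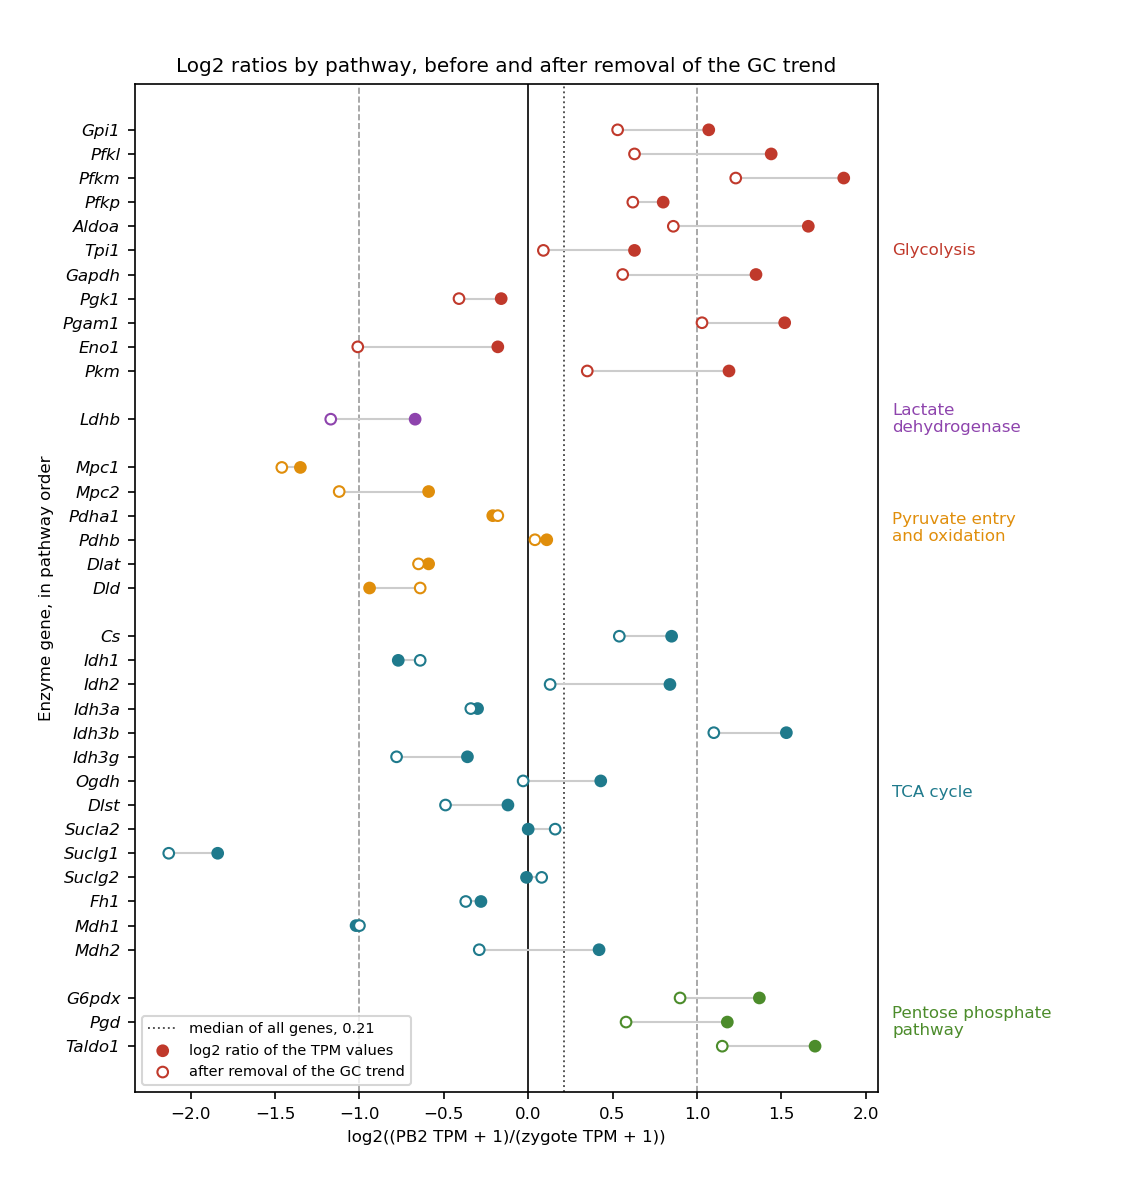
Log2((PB2 TPM + 1)/(zygote TPM + 1)) of the 35 enzymes compared, in pathway order, as filled circles, and after removal of the trend on GC content as open circles. Dashed lines mark 2-fold in each direction and the dotted line the median of all genes, 0.21. All 3 pentose phosphate genes lie past 2-fold towards PB2 before the trend is removed, beside 18.9% of all genes. After removal 1 does, Taldo1, beside 9.08%.

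Lactate dehydrogenase RNA was almost wholly Ldhb in both libraries. Ldhb was the 17th most abundant gene of the table in the zygote and the 20th in PB2, with 0.752% and 0.473% of a full library. It was 1.59 times higher in the zygote (log2 ratio -0.67), which did not reach 2-fold. Ldhb exceeded Ldha by 10749 times in the zygote, where rounding allows 10033 to 11576, and by 5250 times in PB2, where it allows 4974 to 5559. Ldhc, the testis isozyme, which is not on the list, had 5.1 TPM in the zygote against 1.9 TPM in PB2. Ldhb held 99.9% of the 3 isozymes' sum in each library, so the isozyme makeup was alike although the level was lower in PB2. Ldhb lies on chromosome 6 at 142490249 to 142507957, and 27.0% of its 50-base runs are shared with Gm5514.

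The genes that bring pyruvate into mitochondria and oxidize it went the other way from glycolysis. Of 6 genes, none was higher in PB2 by at least 2-fold, beside 18.9% of all genes. In the zygote 1 was, 16.7% beside 8.09%. Without a threshold 5 of the 6 were lower in PB2, beside 4262 of the 10645 genes compared, and the median log2 ratio was -0.59. The summed level of the 6 was 422 TPM in the zygote against 344 TPM in PB2. Mpc1 and Mpc2 encode the 2 proteins that form the mitochondrial pyruvate carrier together. Mpc1 had 22.2 TPM in the zygote against 8.1 TPM in PB2, 2.74 times higher in the zygote. Mpc2 had 6.4 and 3.9 TPM, 1.64 times higher in the zygote. The Mpc1 to Mpc2 ratio was 3.47 in the zygote and 2.08 in PB2. Mpc1 lies on chromosome 17 at 8282904 to 8297661, and 29.6% of its 50-base runs are shared, mainly with the copy Mpc1-ps.

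The pyruvate dehydrogenase complex was unevenly represented, and none of its 4 genes was 2-fold apart. Pdha1 and Pdhb encode the subunits of the decarboxylase, Dlat the acetyltransferase core and Dld the dehydrogenase that reoxidizes it. Pdhb had 210.5 TPM in the zygote against 227.0 TPM in PB2, and Pdha1 had 18.6 and 15.9 TPM. Pdhb was therefore 11.3 times Pdha1 in the zygote and 14.3 times in PB2, although the subunits pair evenly in the enzyme. Dlat had 30.2 and 19.7 TPM (log2 ratio -0.59). Dld, which also serves the oxoglutarate dehydrogenase complex, had 134.4 and 69.7 TPM, a log2 ratio of -0.94 and the lowest of the complex. Shared 50-base runs are 16.9% for Pdha1, 30.3% for Pdhb and 0 for Dlat and Dld.

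The TCA cycle did not move as a block. Of 14 genes, 1 was higher in PB2 by at least 2-fold, 7.14% beside 18.9% of all genes. In the zygote 2 were, 14.3% beside 8.09%. The median log2 ratio was -0.07, and the summed levels were 764 TPM in the zygote against 693 TPM in PB2. The 14 include Mdh1 and Idh1, which encode cytosolic enzymes and were both lower in PB2. Mdh1 is 1 of the 2 and made up 258.8 and 127.0 TPM of the sums, so their order rests on it. The differences lay between the subunits and isozymes of single steps. At the entry, Cs, citrate synthase, had 138.9 TPM in the zygote against 252.0 TPM in PB2, 1.81 times higher in PB2. In PB2 it was the most abundant of the 14 genes, and in the zygote the cytosolic Mdh1 was.

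Isocitrate dehydrogenase exists as an NAD-linked mitochondrial enzyme of 3 kinds of subunit and as NADP-linked forms in the cytosol (Idh1) and the mitochondria (Idh2). Idh3a, the catalytic subunit, had 93.6 TPM in the zygote against 75.8 TPM in PB2, and Idh3g, a regulatory subunit, 6.7 and 5.0 TPM. Idh3b, the other regulatory subunit, had 0.8 and 4.2 TPM. Idh3b thus went against its partners, with a ratio of 5.25 that rounding allows to lie between 4.88 and 5.67, although from a level below 1 TPM in the zygote. The Idh3a to Idh3b ratio was 117 in the zygote and 18.0 in PB2. Idh1 had 46.9 and 27.1 TPM, 1.73 times higher in the zygote. Idh2 had 0.4 and 1.5 TPM, so the mitochondrial form stayed rare at 0.846% of the NADP-linked sum in the zygote and 5.24% in PB2. None of these 5 genes shares a 50-base run with another transcript.

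At the middle of the cycle, the subunits of succinyl-CoA ligase differed from each other. The enzyme joins the common subunit Suclg1 with either Sucla2, for ATP, or Suclg2, for GTP. Suclg1 had 17.3 TPM in the zygote against 4.1 TPM in PB2, 4.22 times higher in the zygote, with 4.16 to 4.28 allowed by rounding. Sucla2 had 55.9 and 56.0 TPM and Suclg2 52.9 and 52.4 TPM, nearly level between the libraries. Suclg1 was thus 13.7% of the 3 genes' sum in the zygote and 3.64% in PB2, and its log2 ratio of -1.84 was the lowest of the 35 genes. It lies on chromosome 6 at 73248382 to 73276911, and no 50-base run of it is shared. Sucla2 shares none either, while 21.8% are shared for Suclg2. Ogdh, the decarboxylase of the oxoglutarate dehydrogenase complex, had 6.4 and 9.0 TPM, and Dlst, the core of the complex, had 40.6 and 37.3 TPM.

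In the last steps of the cycle the cytosolic and mitochondrial malate dehydrogenases parted. Fh1, fumarase, had 35.7 TPM in the zygote against 29.3 TPM in PB2. Mdh1, the cytosolic malate dehydrogenase, had 258.8 and 127.0 TPM, 2.04 times higher in the zygote and just past 2-fold. Mdh2, the mitochondrial enzyme of the cycle itself, had 9.2 and 12.6 TPM, 1.37 times higher in PB2. Mdh1 exceeded Mdh2 by 28.1 times in the zygote and by 10.1 times in PB2. Fh1, Mdh1 and Mdh2 share no 50-base run with other transcripts.

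**Figure D3:**
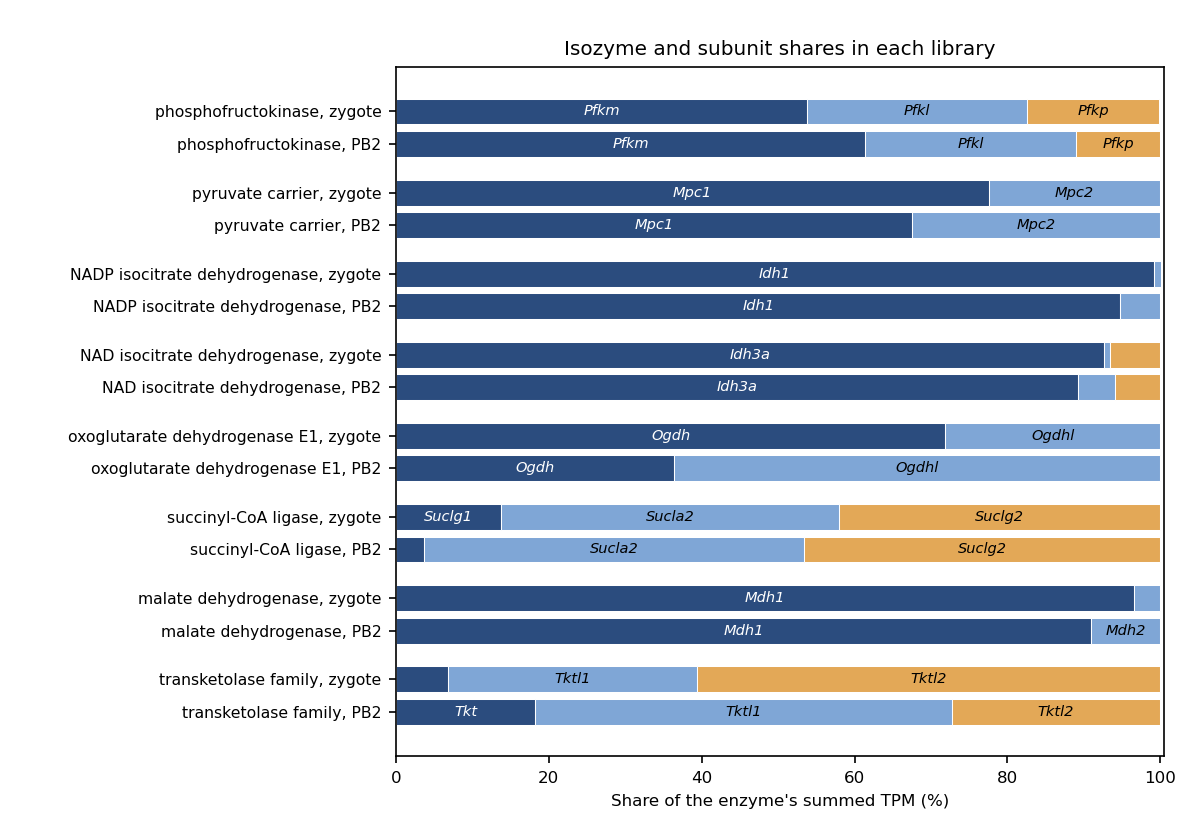
Share of each isozyme or subunit in the summed TPM of its enzyme, in percent, as stacked bars for the zygote and PB2 (1 library each). Unlabelled segments are under 8%: Idh2 after Idh1, Idh3b then Idh3g after Idh3a, Suclg1 in PB2, Mdh2 in the zygote and Tkt in the zygote; Suclg1 takes 13.7% of its enzyme in the zygote and 3.64% in PB2, and Idh3b 0.791% and 4.94%.

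All 3 pentose phosphate genes compared were higher in PB2 by at least 2-fold, beside 18.9% of all genes. The median log2 ratio was 1.37, and the summed level was 289 TPM in the zygote against 773 TPM in PB2, most of it G6pdx. The 4 further genes of the pathway compared below were all lower in PB2, though Rpe was nearly level, so the rise was not shared by the whole pathway. G6pdx, the X-linked glucose phosphate dehydrogenase that makes the first NADPH, had 253.3 TPM in the zygote against 655.6 TPM in PB2. Its rank among the genes of the table was 525 in the zygote and 193 in PB2, and after Ldhb it was the most abundant gene of the list in PB2. Pgd, the phosphogluconate dehydrogenase of the next NADPH step, had 2.0 and 5.8 TPM. Taldo1, transaldolase, had 33.6 and 111.2 TPM (log2 ratio 1.70). With the GC trend removed, G6pdx had 0.90 and Pgd 0.58 on the log2 scale, and Taldo1 stayed past 2-fold at 1.15. G6pdx exceeded Pgd by 127 times in the zygote and 113 times in PB2, with both genes higher in PB2. Tkt, the usual transketolase, had 0.6 TPM in both libraries. Its relatives Tktl1 and Tktl2 were also rare, with 2.9 and 5.4 TPM in the zygote and 1.8 and 0.9 TPM in PB2. Shared 50-base runs are 10.7% for G6pdx, part of them with the copy G6pd2, and 10.9% for Taldo1.

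The log2 ratios of the enzymes followed the GC content of their transcripts. Spearman's rho was 0.62 over the 35 genes and 0.44 over the 10606 compared genes with a transcript in GENCODE M21, across genes that share the same 2 libraries and are not independent. The 11 genes higher in PB2 by at least 2-fold had a median GC content of 54.2%, the 3 higher in the zygote 48.0%, and the other 21 genes 49.7%. No gene of the 11 had a GC content below 52.1%, and no gene of the 3 had one above 50.2%. By pathway the median was 54.7% in glycolysis, 53.6% in the pentose phosphate pathway, 50.3% in the TCA cycle and 47.3% in pyruvate entry and oxidation. The part of base composition in the ratios was not tested, and it cannot be told apart from the pathways where the pathways differ in GC content.

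**Figure D4:**
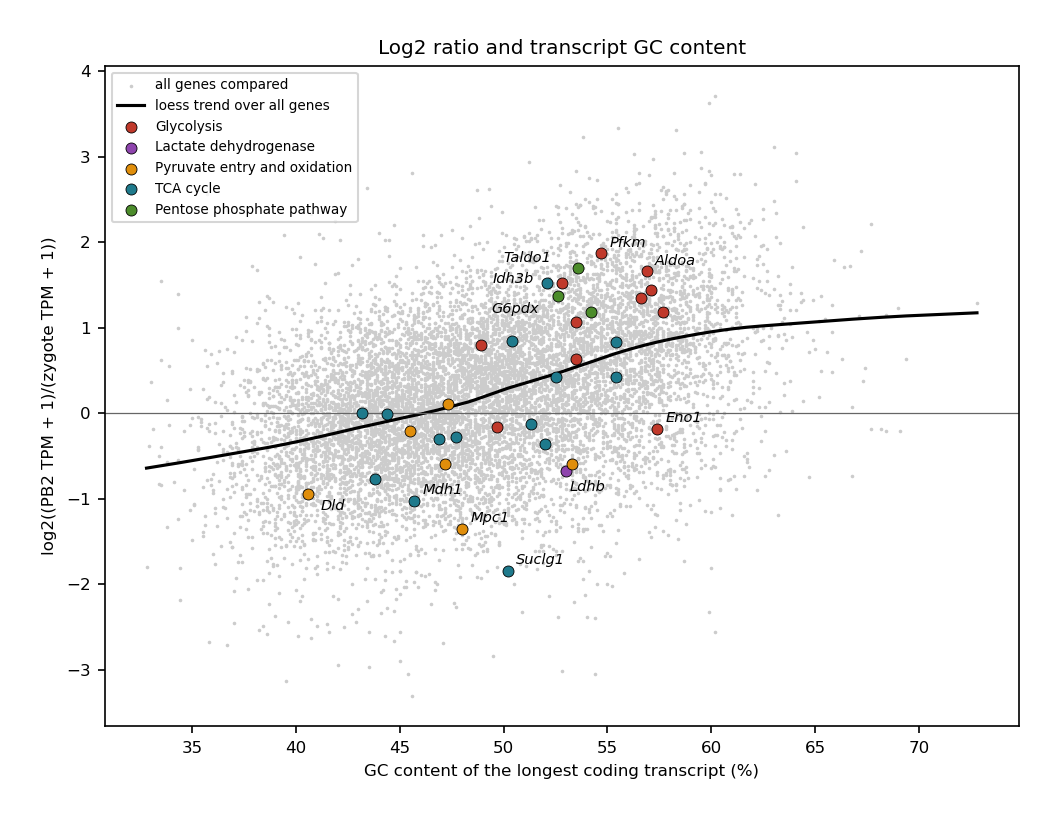
Log2((PB2 TPM + 1)/(zygote TPM + 1)) against the GC content of the longest coding transcript in percent, for all genes compared (grey), with the loess trend over all genes (line) and the 35 enzymes by pathway (colours). Suclg1 and Mpc1 lie well below the trend, Ldhb and Eno1 lie below it at a GC content above 50%, and Pfkm, Taldo1 and Idh3b lie above it.

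With the trend over all genes removed, 4 of the 35 enzymes were higher in PB2 by at least 2-fold, against 9.08% of all genes, and 5 in the zygote, against 11.0%. Both counts are close to what these shares give for 35 genes. The excess towards PB2 was thus smaller than before removal, when it was 31.4% against 18.9%. The 4 were Pfkm, Pgam1, Idh3b and Taldo1, with values of 1.23, 1.03, 1.10 and 1.15 on the log2 scale. The 5 were Suclg1 at -2.13, Mpc1 at -1.46, Ldhb at -1.17, Mpc2 at -1.12 and Eno1 at -1.01. The median of glycolysis was then 0.56 and that of the pentose phosphate pathway 0.90, both still above 0, and pyruvate entry and oxidation lay at -0.64 and the TCA cycle at -0.32. Mdh2 went from 0.42 to -0.29, so its direction turned. Ogdh went from 0.43 to -0.03, nearly level, and Suclg2 from -0.01 to 0.08, nearly level in both. With the log2 ratios centred on the median of all genes instead, 8 enzymes were higher in PB2 by at least 2-fold, against 13.0% of all genes, and 4 in the zygote, against 12.1%. Under each setting in which they were compared, Pfkm, Pgam1, Idh3b and Taldo1 stayed higher in PB2 by at least 2-fold, and Suclg1 and Mpc1 higher in the zygote by at least 2-fold, with the 2-fold threshold kept.

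Further genes of the same pathways were described for context from a list of 89, of which 62 are in the table and 59 were compared. Of the 59, 10 were higher in PB2 by at least 2-fold, which is 16.9% beside 18.9% of all genes. In the zygote 9 were, which is 15.3% beside 8.09% of all genes, and the median log2 ratio was 0.07. Those at the sites of the enzymes above are given by step, where they reached 2-fold and 10 TPM in either library, led their list in level or help to read a listed enzyme.

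At the entry of glucose, Hk2, a hexokinase, had 0.7 TPM in the zygote against 2.3 TPM in PB2. Adpgk, a glucokinase that uses ADP, had 19.9 and 77.7 TPM (log2 ratio 1.91). Bsg, a partner of the lactate transporters and the most abundant gene of the transport list, was nearly level at 92.5 and 101.4 TPM. Bpgm, bisphosphoglycerate mutase, had 1919.9 and 2568.8 TPM (log2 ratio 0.42), and its transcripts exceeded those of Pgam1 by 226 times in the zygote and 98.0 times in PB2. Among genes of gluconeogenesis and glycogen, Fbp2, a fructose bisphosphatase, had 44.5 and 17.6 TPM (log2 ratio -1.29). Gys1, glycogen synthase, had 8.2 and 49.7 TPM, the highest log2 ratio of these lists at 2.46. Ugp2, which makes the UDP-glucose that glycogen synthase uses, went the other way, with 11.9 and 4.6 TPM. Gckr, a regulator of glucokinase, had 65.6 and 38.0 TPM.

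Of the 10 genes compared around pyruvate dehydrogenase, 2 passed 2-fold towards PB2, both kinases. That is 20.0% beside 18.9% of all genes, a share near the background. Another 2, also 20.0%, passed it towards the zygote, beside 8.09%. Pdk1 had 5.2 TPM in the zygote against 13.6 TPM in PB2, and Pdk3 had 28.8 and 60.9 TPM, with log2 ratios of 1.24 and 1.05. These kinases phosphorylate Pdha1 and switch the complex off. The 2 towards the zygote were of low level. They were Pdha2, the testis isozyme of Pdha1, with 4.7 and 1.4 TPM, and Pdp2, a phosphatase that reverses the kinases, with 1.4 and 0.1 TPM. Pdp1, the other such phosphatase, was more abundant, with 22.8 and 26.9 TPM (log2 ratio 0.23). The activity of the complex was not tested. Pdhx, which anchors Dld to the complex, had 201.8 and 135.7 TPM (log2 ratio -0.57). Me1, the cytosolic malic enzyme, had 635.3 and 291.0 TPM (log2 ratio -1.12), with 32.8% of its 50-base runs shared.

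In the TCA cycle, Ogdhl, a relative of Ogdh, had 2.5 TPM in the zygote against 15.7 TPM in PB2, so Ogdh made up 71.9% of the pair's sum in the zygote and 36.4% in PB2. The subunits of succinate dehydrogenase lay on both sides. Sdha, the flavoprotein, had 69.3 and 140.0 TPM, and Sdhb, the iron-sulphur subunit that binds it, had 20.6 and 5.8 TPM. The Sdha to Sdhb ratio was 3.36 in the zygote and 24.1 in PB2. The membrane subunit Sdhd, the most abundant of this list in the zygote, had 163.2 and 95.7 TPM.

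Among the shuttles that link cytosol and mitochondria, Got2, the mitochondrial aspartate aminotransferase, had 25.1 TPM in the zygote against 71.5 TPM in PB2, with 47.2% of its 50-base runs shared. Got1, the cytosolic enzyme, had 71.8 and 41.2 TPM. Slc25a1, the citrate carrier, had 6.1 and 22.0 TPM (log2 ratio 1.70). In the pentose phosphate pathway, Rpe, an epimerase of its later steps, had 78.9 and 73.4 TPM. All 4 further genes compared were lower in PB2, beside 4262 of the 10645 genes compared, with a median log2 ratio of -0.72. Rpe was nearly level at -0.10, and with the GC trend removed it alone lay above 0, at 0.28. The others had at most 6.4 TPM in either library.

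**Figure D5:**
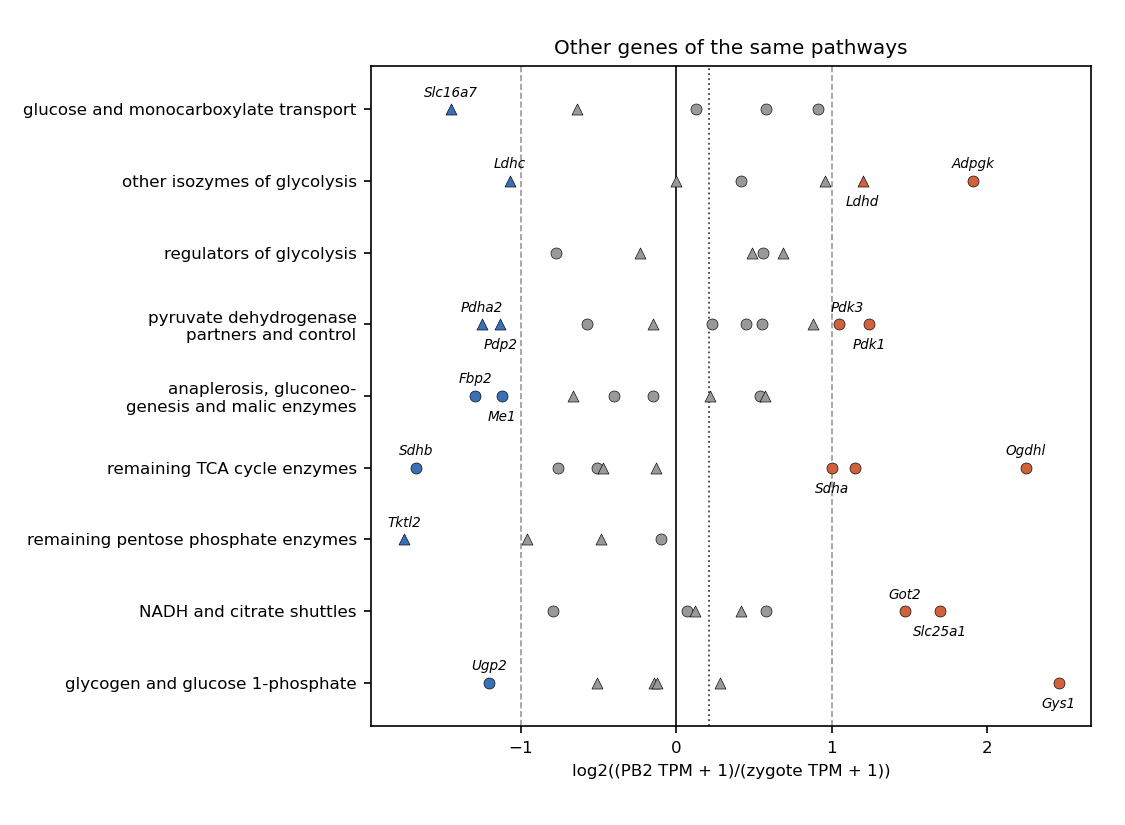
Log2((PB2 TPM + 1)/(zygote TPM + 1)) of the 59 further genes by list, with dashed lines at 2-fold, a dotted line at the median of all genes, 0.21, red for higher in PB2 by at least 2-fold, blue for higher in the zygote by at least 2-fold and triangles for genes under 10 TPM in both libraries. Symbols are printed for genes past 2-fold, except 1. Gys1 and Ogdhl lie farthest towards PB2 at 2.46 and 2.25, and Tktl2 and Sdhb farthest towards the zygote at -1.75 and -1.67.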

How the data were processed

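RNA was measured in 1 library of PB2 and 1 library of zygotes. According to the methods and the submitters' processing notes, the authors called bases with CASAVA, aligned reads with HISAT2 2.0.4 under default parameters, counted them per gene with HTSeq 0.6.1p1 on Ensembl annotation 85 and used DESeq2 1.18.1 for normalization. The assembly named in the paper is the rabbit OryCun2.0, the notes add GRCm38, and the identifiers of the table are those of mouse Ensembl genes. The values deposited are TPM with 1 decimal. How TPM was made from the counts is not given in the sources used here. Depth is unknown, so no interval for counting error is given. The table's 11262 genes add up to 92.7% of a full library in the zygote and 89.8% in PB2. Each value column was matched to its sample by name, with 0 columns left over.

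From these values, log2((PB2 TPM + 1)/(zygote TPM + 1)) was computed over the 10645 genes with at least 1 TPM in either library, and the pseudocount of 1 understates the change of low genes. Rounding intervals take each value within 0.05 TPM. The median of all genes was 0.21. GC content and length are those of the longest protein-coding transcript in GENCODE M21 (GRCm38), and trends came from loess (span 0.3). Shared sequence is the share of a transcript's 50-base runs found on either strand in transcripts of other genes. Gene coordinates are those of GENCODE M21, and promoter windows are from RefSeq (GRCm38.p6). The members and lists were chosen with earlier results of these data known. All members are named. Further genes are named if at least 2-fold apart with at least 10 TPM, or if highest in their list. Isozymes of members (Hk2, Ldhc, Tktl1, Tktl2, Pdha2), Pdp1 and Pdp2 were named in addition after their values were seen. The values of 1 further gene that this rule names are not reported here. Alternatives were pseudocounts of 0.1 and 0.01, no filter, a filter at 5 TPM, zygote values scaled by 1.06 to a median ratio of 1 over 4973 genes with at least 10 TPM, centring on the median of all genes, removal of the 50 most abundant and the mitochondrially encoded genes, removal of the GC or length trend, and thresholds of 1.5-fold and 4-fold. The functions were tested on simulated data. Scripts ran in Python 3.11.15 with pandas 2.3.3, numpy 2.4.6 and scipy 1.17.1, loess came from statsmodels 0.14.6, and plots were drawn with matplotlib 3.10.9.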

Additional observations from a re-analysis of the deposited data

How the results depend on the processing

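No paired analysis was possible because each group has 1 library and the result comes from no test. Counts were compared within 1.5 times, medians within 0.25 and single log2 ratios within 0.5. Of 89 counts and medians recomputed, 72 stayed within these limits and 17 moved. The median of the 35 enzymes, 0.11, was -0.01 with a filter at 5 TPM and -0.10 after centring, so its sign is not settled. Centring subtracts the median of all genes, 0.21, from every value. The filter at 5 TPM left out Pfkp, Idh2 and Idh3b, which were all higher in PB2. The cause of the other changes was not tested, except that a higher threshold leaves fewer genes. With the GC trend removed, 4 enzymes in place of 11 were at least 2-fold higher in PB2, beside 9.08% of all genes. In the zygote 5 in place of 3 were, beside 11.0%. The medians of glycolysis and of the pentose phosphate pathway were 0.56 and 0.90. Of the further genes 4 were higher in PB2, beside 9.08% of all genes. With the length trend removed, 5 enzymes were higher in the zygote, the medians were 0.92 in glycolysis, 1.07 in the pentose phosphate pathway and -0.32 in the TCA cycle, and 5 of the further genes were higher in PB2. Centring left 6 of the further genes at least 2-fold higher in PB2, beside 13.0% of all genes. At 1.5-fold, 8 enzymes and 15 further genes were higher in the zygote, beside 18.1% of all genes, and 15 and 14 in PB2, beside 34.2%. At 4-fold on the scale with the pseudocount of 1, no enzyme was higher in either direction (0 and 0), although the plain ratios of Pfkm, Idh3b and Suclg1 exceed 4. The further genes gave 2 towards PB2 and 0 towards the zygote, beside 2.48% and 0.695% of all genes. The share of all 2-fold calls that lay in PB2 was 70.0%, and 51.7% after centring, 45.3% with the GC trend removed and 50.8% with the length trend removed. Single log2 ratios moved for 14 of the 35 enzymes with the GC trend removed, and for Idh2 and Idh3b with a pseudocount of 0.1, joined by Pfkl and Pfkp at 0.01. Genes under a few TPM, among them Pfkl, Pfkp, Idh2, Idh3b and Pgd, rest on values given to 0.1 TPM. All 104 isozyme shares at their rounding bounds stayed within 5 points.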

Other observations

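Cytosolic members of a pair were lower in PB2 where mitochondrial members were higher in 2 cases of the malate-aspartate shuttle. Mdh1 and Got1, both cytosolic, had log2 ratios of -1.02 and -0.79, and Mdh2 and Got2, both mitochondrial, had 0.42 and 1.47. With the GC trend removed Got1 had -1.23, Mdh2 -0.29 and Got2 0.85, so Mdh2 no longer lay on the side of Got2. The pairing was noticed in the data and not tested.

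The sources of cytosolic NADPH differed in direction. G6pdx, which opens the pentose phosphate pathway, had a log2 ratio of 1.37, while Me1 and Idh1 had -1.12 and -0.77. With the GC trend removed these were 0.90, -1.07 and -0.64, and each kept its side. G6pdx at 253.3 TPM was below Me1 at 635.3 TPM in the zygote and above it in PB2, with 655.6 against 291.0 TPM.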
